A study of Homo sapiens with 6 samples.

Results

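The endoplasmic reticulum (ER) machinery of protein folding was followed in A375 cells, an established line from a human melanoma that carries mutant BRAF. It was given as a list of 37 genes, of which 34 were measured among 19676 genes in all. The members are 3 sensors and transducers, 10 chaperones and their cofactors, 8 disulfide enzymes, 7 factors of ER-associated degradation, 4 of translocation into the ER and 5 of ER export and retrieval. They were named by function and not by any measured value. PDIA5 and SYVN1 were represented only by probe sets that also name a microRNA, and no probe set was named for KDELR2, so these 3 were not analysed here.

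Total RNA was hybridised to 6 Affymetrix arrays, 1 for each condition. After 6 h there was an array each for DMSO alone as the control, vemurafenib at 10 µM, AT9283 at 100 nM, and both drugs together at these doses, here called the combination. After 16 h there was one for the DMSO control and one for vemurafenib at 10 µM. All cells grew in RPMI1640 with fetal bovine serum and kanamycin, and AT9283 at 16 h was not analysed here. Vemurafenib blocks mutant BRAF and thereby ERK signalling. AT9283 is an inhibitor of several kinases that include the Aurora kinases and JAK2. The title of the series names the mechanisms by which ATF4 is expressed.

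Proteins that enter the secretory pathway fold in the ER, where HSPA5 (BiP) and other chaperones bind them, disulfide isomerases pair their cysteines, and proteins that fail to fold are sent back to the cytosol for degradation. When unfolded proteins accumulate, the sensors ATF6, IRE1 (encoded by ERN1) and PERK (encoded by EIF2AK3) start the unfolded protein response. ATF6 and XBP1, whose mRNA is spliced by IRE1, act on chaperone and degradation genes, whereas PERK phosphorylates eIF2α and thereby raises ATF4, which other kinases of eIF2α can also do without any ER signal.

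Values are log2 of the deposited intensity, and differences are on the log2 scale. In the text a gene "rose" or "fell" when its difference was at least 0.5, which is 1.41-fold, and the higher of the arrays stood at log2 6 or more (the floor). It sorts genes by size and tests nothing, since each condition had 1 array, and the number of arrays limits the precision. The pair of DMSO arrays, which differ in time, served as a yardstick. At the floor 4.35% of genes differed between them by 0.5 or more in either direction, with an SD of 0.24 across genes. In bulk RNA, fewer cells expressing a gene and less RNA per cell cannot be told apart.

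The arrays were alike in overall level, with a median intensity from 19.79 to 21.29. DUSP6, a phosphatase gene induced by ERK, differed from DMSO by -5.23 and -5.22 on the vemurafenib arrays at 6 h and 16 h. It lay below the floor on both vemurafenib arrays (4.28 and 4.38), so these sizes are not exact. Of 8 melanoma markers measured, SOX10, MITF and ERBB3 lay at the floor or above on all 6 arrays, and PMEL, MLANA, TYR and S100A1 lay below it on all 6. The summed intensity of these 8 ranged from 1167.81 to 1794.65 per array. Of 7 markers of other cell types, 6 lay below the floor on every array and PDGFRB reached it on 2, and their summed intensity ranged from 136.69 to 182.9.

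The 2 members that rose after 6 h of vemurafenib were HERPUD1 and XBP1, and the DNA before their starts is shown first, with that of HSPA5, the classic target of the response, and of SDF2L1, the member that fell most at 16 h. The letters come from RefSeq (GRCh38.p14), in which 33 of the 37 members had at least 1 window around a transcription start, 41 windows in all, each running from 250 bases before the start to 50 after it. The 250 bases before the start are printed in the direction of the gene. Capitals mark the fixed letters of 3 motifs: ERSE (CCAAT, 9 bases of any kind, then CCACG), the element bound by ATF6 and by the spliced form of XBP1, ERSE-II (ATTGG, 1 base of any kind, then CCACG), and CARE (TGATGNAA), the composite C/EBP-ATF element through which ATF4 acts. Both strands were searched, so CARE can appear as its complement in reverse, as can the others.
HERPUD1, chr16:56931892-56932141, plus strand: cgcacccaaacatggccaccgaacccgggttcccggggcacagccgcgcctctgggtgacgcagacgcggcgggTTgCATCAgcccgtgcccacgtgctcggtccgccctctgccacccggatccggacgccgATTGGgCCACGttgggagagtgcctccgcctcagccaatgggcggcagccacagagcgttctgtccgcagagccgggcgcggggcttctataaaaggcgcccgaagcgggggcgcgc
XBP1, chr22:28800570-28800819, minus strand: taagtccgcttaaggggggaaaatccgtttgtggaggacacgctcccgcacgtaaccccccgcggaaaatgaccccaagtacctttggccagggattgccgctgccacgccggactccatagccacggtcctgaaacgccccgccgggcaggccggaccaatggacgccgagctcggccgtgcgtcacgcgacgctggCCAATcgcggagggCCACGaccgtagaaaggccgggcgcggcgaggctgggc
HSPA5, chr9:125241344-125241593, minus strand: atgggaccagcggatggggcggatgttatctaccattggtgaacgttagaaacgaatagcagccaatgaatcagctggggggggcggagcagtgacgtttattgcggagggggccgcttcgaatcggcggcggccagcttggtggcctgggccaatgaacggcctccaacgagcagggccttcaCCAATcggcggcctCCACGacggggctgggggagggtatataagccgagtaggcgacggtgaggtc
SDF2L1, chr22:21642052-21642301, plus strand: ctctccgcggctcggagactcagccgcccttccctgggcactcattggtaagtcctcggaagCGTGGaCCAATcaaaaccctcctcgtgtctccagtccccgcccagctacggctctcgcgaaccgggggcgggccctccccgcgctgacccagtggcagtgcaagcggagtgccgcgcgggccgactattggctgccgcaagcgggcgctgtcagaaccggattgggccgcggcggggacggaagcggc

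HERPUD1 held the letters of ERSE-II 117 to 107 bases before its start and those of CARE 176 to 169 bases before it. It was the 1 member of 33 whose window held CARE, which occurs in 3.62% of all 35116 windows. ERSE-II was found in HERPUD1, HYOU1 and SDF2L1, and in 0.0541% of all windows. ERSE was found in 9 members and in 0.0769% of all windows. Another motif, UPRE (TGACGTGG), was found in HYOU1, KDELR3 and TXNDC11 and in 0.729% of all windows. The letters CCACG end ERSE and ERSE-II and are part of UPRE on its other strand, and in HYOU1 a UPRE match overlapped an ERSE-II match, and ATTGG is the complement of CCAAT in reverse. Such a match is a description of the letters and not a shown binding site. The ERSE matches are given in the direction of the motif, with the fixed letters in capitals. The members that carry them include the chaperones and cofactors HSPA5, HSP90B1, CALR, CANX and CRELD2, and the other chaperones and cofactors held no ERSE match.
HSPA5, chr9:125241391-125241409, minus strand: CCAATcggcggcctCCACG
HSP90B1, chr12:103930216-103930234, plus strand: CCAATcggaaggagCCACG
HSP90B1, chr12:103930321-103930339, minus strand: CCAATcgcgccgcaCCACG
CALR, chr19:12938384-12938402, minus strand: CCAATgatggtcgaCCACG
CANX, chr5:179698778-179698796, plus strand: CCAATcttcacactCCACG
CRELD2, chr22:49918554-49918572, minus strand: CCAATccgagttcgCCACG
PDIA6, chr2:10812853-10812871, minus strand: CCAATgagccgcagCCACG
ERO1B, chr1:236282183-236282201, plus strand: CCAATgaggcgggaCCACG
SERP1, chr3:150546710-150546728, plus strand: CCAATtcgctgtctCCACG
XBP1, chr22:28800603-28800621, minus strand: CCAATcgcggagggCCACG

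The 9 ERSE carriers had a median difference of -0.01 at 6 h of vemurafenib, but spread widely, with XBP1 the highest (1.01). ERO1B had the lowest value (-0.72), with both arrays below the floor. At 16 h their median was -0.24, with a range from -1.13 (ERO1B, below the floor on the vemurafenib array) to 0.15 (XBP1), and between the combination and vemurafenib it was 0.02. The 17 measured members whose windows held none of the 4 motifs had medians of 0.03 at 6 h and -0.16 at 16 h.

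After 6 h of vemurafenib, XBP1 and HERPUD1 rose and SEC24D fell, while no chaperone or disulfide enzyme passed the size rule. Of the 32 members at the floor, 2 rose and 1 fell, whereas 4.56% of the 9095 genes at the floor rose and 6.82% fell. In either direction it was 3 members against 11.4% of genes, so the share of members that moved was near the background. Past 1 on the log2 scale there was XBP1, where 1.03% of genes rose by as much. The median over the 34 members was 0.02, as it was over all genes (0.02), and 26 of the 34 lay within 0.25 of DMSO. The SD over all genes at the floor was 0.43, and their share within 0.25 was not counted.

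**Figure D1:**
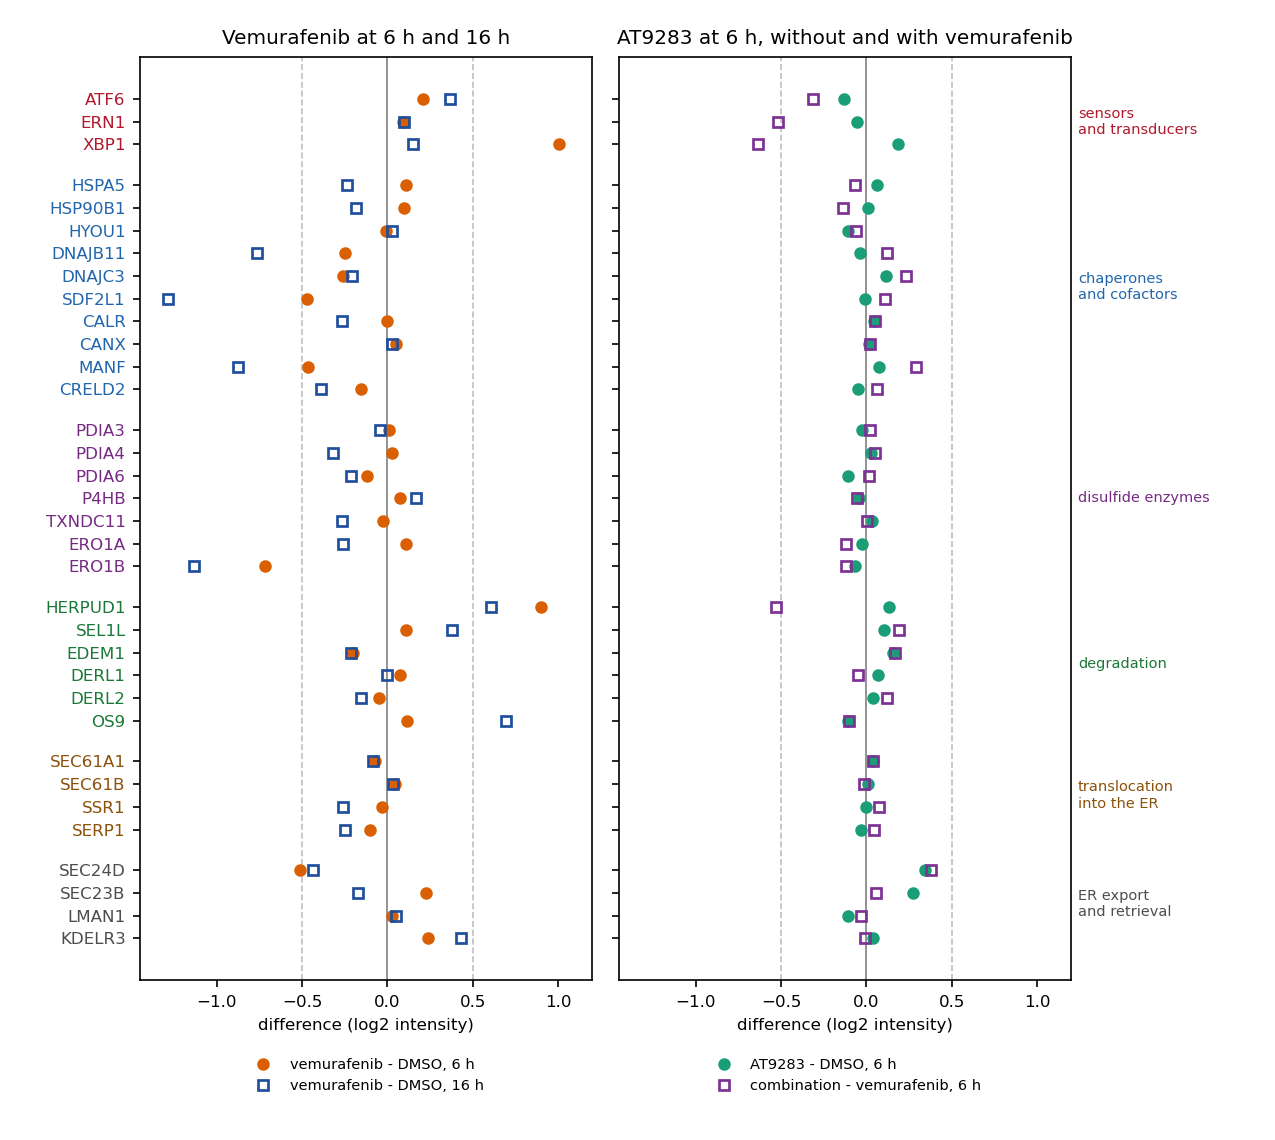
Differences on the log2 scale for the 34 measured members, grouped by role, with vemurafenib against DMSO at 6 h (filled circles) and 16 h (open squares) on the left, and AT9283 against DMSO (filled circles) and the combination against vemurafenib (open squares) on the right. Dashed lines mark -0.5 and 0.5. Most points lie between them, with XBP1 and HERPUD1 to the right at 6 h and SDF2L1 and ERO1B farthest to the left at 16 h.

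Among the sensors and transducers, XBP1 encodes the factor whose spliced form drives chaperone and degradation genes. Its log2 intensity was 7.59 in DMSO, 8.59 in vemurafenib, 7.77 in AT9283 and 7.96 in the combination at 6 h, and 7.54 in DMSO and 7.69 in vemurafenib at 16 h. The vemurafenib array at 6 h stood above all 5 others, and the remaining 5 spanned 7.54 to 7.96. The rise was 1.01 at 6 h (2.01-fold), against a difference of 0.15 at 16 h. These values are of total XBP1 mRNA as this probe set sees it, and its splicing was not measured. A second XBP1 probe set lay far below the floor in every condition and differed by -0.20 at 6 h, and the mean of both probe sets differed by 0.40, short of the rule.

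ATF6, the sensor that is cut in the Golgi to free a transcription factor, had differences of 0.21 at 6 h and 0.36 at 16 h, neither past the size rule. Its log2 values were 7.81, 8.02, 7.68 and 7.71 at 6 h in the order DMSO, vemurafenib, AT9283 and combination, and 7.85 and 8.21 at 16 h. A further ATF6 probe set at the floor differed by 0.17 and 0.54. Lower probe sets, below the floor in DMSO, differed by 0.36 and 0.58 at 16 h. Some ATF6 probe sets thus passed 0.5 at 16 h, and the one used did not. ERN1 lay below the floor on all 6 arrays with its 3 probe sets, so IRE1 mRNA gave no usable difference here. EIF2AK3, which encodes PERK and is not a member, differed by -0.12 at 6 h and -0.23 at 16 h.

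Among the chaperones and cofactors, 6 of 10 lay within 0.25 of DMSO at 6 h of vemurafenib and 7 were lower than DMSO, the lowest being SDF2L1 (-0.47) and MANF (-0.46). HSPA5, the ER's main HSP70 chaperone, had log2 values of 11.86 in DMSO, 11.97 in vemurafenib, 11.93 in AT9283 and 11.91 in the combination at 6 h, and 11.78 in DMSO and 11.55 in vemurafenib at 16 h. The drug arrays at 6 h lay within 0.11 of DMSO, and the lowest of the 6 was vemurafenib at 16 h. HSP90B1 (GRP94), the ER member of the HSP90 family, differed by 0.10 and -0.18, the HSP110-like HYOU1 by -0.01 and 0.03, and the lectin chaperones CALR and CANX by -0.01 and 0.05 at 6 h and -0.27 and 0.03 at 16 h. Other probe sets at the floor gave lower values at 16 h for some of these. They differed by -0.47 for HSPA5, -0.43 for HSP90B1 and -0.73 (past the rule) for CALR. A further CALR probe set differed by -0.25, close to the one used. The other CANX probe sets at the floor differed by between 0.02 and 0.10. None of the 10 chaperones and cofactors passed the size rule at 6 h, where their median was -0.08, against 0.02 over all genes. How many of all genes lay below DMSO, or within 0.25 of it, was not counted.

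At 16 h of vemurafenib 3 of these 10 fell, SDF2L1, MANF and DNAJB11, and none rose, against 18.0% of the 9469 genes at the floor that fell in this comparison and 16.0% that rose. SDF2L1 works with DNAJB11 as a cofactor of HSPA5. Its log2 values were 7.92, 7.45, 7.91 and 7.56 at 6 h in the order DMSO, vemurafenib, AT9283 and combination, and 7.64 and 6.35 in DMSO and vemurafenib at 16 h. The vemurafenib array at 16 h was the lowest by far, a 2.44-fold difference (-1.28), and both arrays with vemurafenib at 6 h lay below both without it.

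MANF, a small ER protein that binds HSPA5 and can be secreted, was also lower on the arrays with vemurafenib. Its log2 values were 10.48, 10.02, 10.56 and 10.31 at 6 h and 10.32 and 9.45 at 16 h, in the order given above. The differences under vemurafenib were -0.46 at 6 h, just short of the rule, and -0.88 at 16 h. DNAJB11 (ERdj3), an HSP40 partner of HSPA5, stood at 9.75, 9.49, 9.71 and 9.61 at 6 h and 9.74 and 8.97 at 16 h, which is a fall of 0.76 at 16 h. All arrays without vemurafenib lay above those with it for these 3 genes.

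The other members of this role moved less at 16 h on the probe sets used. CRELD2, which was found as a gene of ER stress, differed by -0.15 and -0.39, and DNAJC3 (p58IPK), a cochaperone of HSPA5, by -0.26 and -0.21. The median over the 10 was -0.25 at 16 h, against 0.00 over all genes, and 8 of them had a negative difference. The DMSO arrays also differed in this direction, since all 10 were lower at 16 h than at 6 h, by a median of -0.10. Over all genes at the floor that median was -0.04. The shares of all genes with a negative difference were not counted. Differences at 16 h are taken against the DMSO array of that time.

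**Figure D2:**
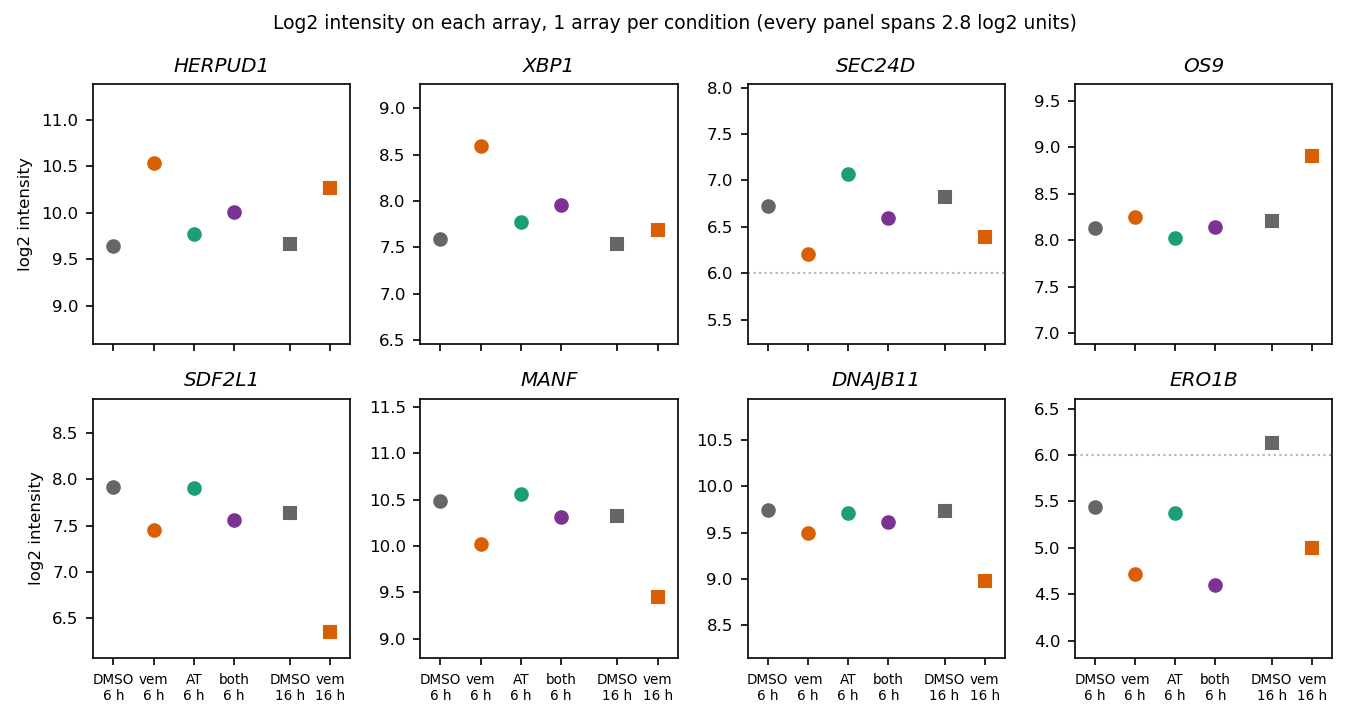
Log2 intensity on each of the 6 arrays for 8 members that passed the size rule in at least 1 comparison, with 6 h as circles and 16 h as squares, coloured by treatment, and a dotted line at the floor of log2 6 where it is in range. XBP1 peaks on the vemurafenib array at 6 h (8.59), HERPUD1 on both vemurafenib arrays (10.54 and 10.27), and SDF2L1, MANF and DNAJB11 are lowest on the vemurafenib array at 16 h.

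Among the disulfide enzymes, ERO1B was the 1 member that fell, and it did so at 16 h. ERO1 oxidases pass oxidising equivalents to the isomerases. ERO1B had log2 values of 5.44, 4.72, 5.37 and 4.60 at 6 h and 6.13 and 5.00 at 16 h, so that only DMSO at 16 h reached the floor. Its difference of -1.13 at 16 h therefore rests on 1 array just above the floor, and between the DMSO arrays it was 0.69 higher at 16 h, the 1 member past the rule there, where 2.3% of genes were higher. Its paralog ERO1A differed by 0.11 at 6 h and -0.26 at 16 h on the probe set used, and by -0.50 and -0.58 at 16 h on its other probe sets, which also lie above the floor. PDIA3 (ERp57), which works with calnexin and calreticulin, differed by 0.01 and -0.04, P4HB, the founding isomerase, by 0.07 and 0.17, PDIA4 by 0.03 and -0.32, PDIA6 by -0.12 and -0.22, and TXNDC11 by -0.03 and -0.27. The median of the 7 was 0.01 at 6 h and -0.26 at 16 h.

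In degradation, HERPUD1 was the 1 member of the 34 that rose at both times of vemurafenib. HERPUD1 (Herp) is a membrane protein that joins the HRD1 complex, which moves misfolded proteins out of the ER. Its log2 intensity was 9.64 in DMSO, 10.54 in vemurafenib, 9.77 in AT9283 and 10.01 in the combination at 6 h, and 9.67 in DMSO and 10.27 in vemurafenib at 16 h. Both arrays of vemurafenib alone stood above all others, the combination came next, and the 3 arrays without vemurafenib spanned 9.64 to 9.77. HERPUD1 rose by 0.90 at 6 h (1.86-fold) and by 0.61 at 16 h (1.52-fold). Its other named probe set lay below the floor, and the mean of both differed by 0.51 at 6 h and by 0.30 at 16 h, which is short of the rule at 16 h.

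OS9, a lectin that delivers glycoproteins to the HRD1 complex, rose at 16 h. It had log2 values of 8.13, 8.25, 8.03 and 8.15 at 6 h and 8.21 and 8.90 at 16 h, a rise of 0.70 on the vemurafenib array, and its other probe set differed by 0.63. SEL1L, the adaptor of the same complex, differed by 0.11 at 6 h and 0.38 at 16 h. EDEM1, a lectin of mannose trimming, differed by -0.20 and -0.21, DERL1 by 0.07 and 0.00, and DERL2 by -0.05 and -0.16. In all 2 of the 6 measured members of this role rose at 16 h, against 16.0% of genes at the floor, none fell, against 18.0%, and the median was 0.19.

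Translocation genes were the most even of the roles at 6 h. The channel subunits SEC61A1 and SEC61B, the translocon-associated SSR1 and the small membrane protein SERP1 differed by between -0.10 and 0.05 at 6 h, and by between -0.26 and 0.03 at 16 h. A low probe set of SERP1 differed by 1.97 at 16 h, where it rose from below the floor, against -0.25 on the probe set used.

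In ER export and retrieval, SEC24D, a cargo adaptor of the COPII coat, had log2 values of 6.72, 6.21, 7.06 and 6.59 at 6 h and 6.83 and 6.39 at 16 h. It fell by 0.51 at 6 h of vemurafenib and differed by -0.44 at 16 h, and at both times the vemurafenib array was the lower of the pair. The fall at 6 h was just past the rule, and the mean over the probe sets of SEC24D differed by -0.20. KDELR3, a receptor that returns chaperones bearing a KDEL signal to the ER, differed by 0.24 and 0.43. LMAN1, a cargo receptor, differed by 0.03 and 0.05. SEC23B differed by 0.23 and -0.17, but a probe set of nearly the same level differed by -0.09 at 6 h.

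At 16 h of vemurafenib 2 of the 33 members at the floor rose and 4 fell, and the median of the 34 was -0.18, against a median of 0.00 over all genes. In the same comparison 34.1% of genes at the floor moved by 0.5 or more in either direction, and the 6 members make a smaller share. By 1 or more SDF2L1 and ERO1B fell, where 5.79% of genes did. The 2 times share no array. Across the 34 members, which were read on the same arrays and are not independent, the differences at 6 h and 16 h correlated with r = 0.74 (Pearson) and rho = 0.76 (Spearman), and 26 had the same sign. The 34 include ERN1, below the floor on all arrays, and ERO1B, which reached it on 1. Neither value was computed over all genes, so they are not shown to be particular to the members.

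**Figure D3:**
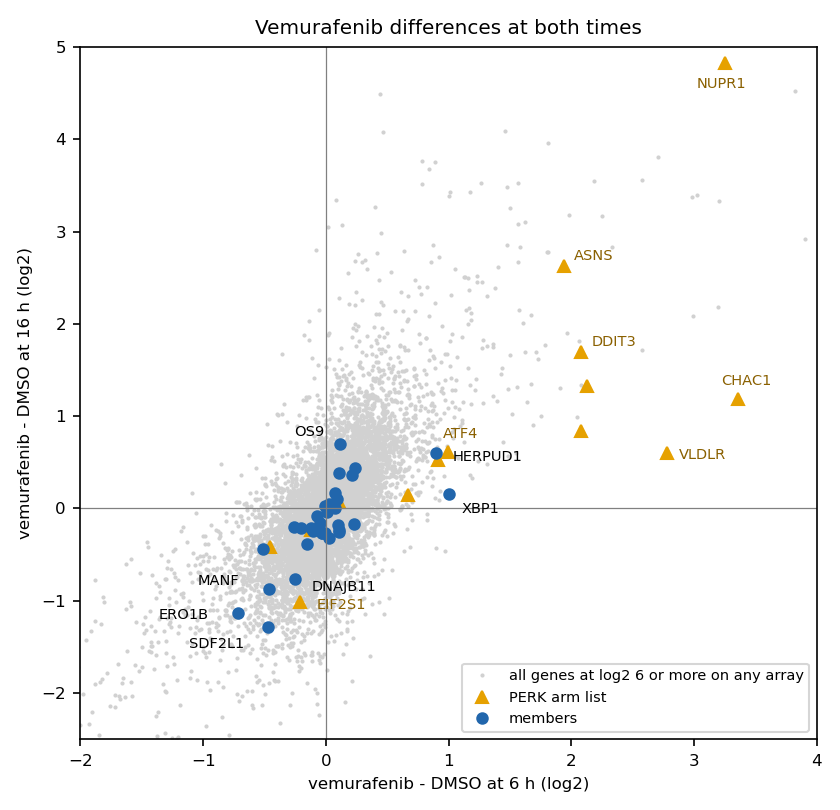
Differences between vemurafenib and DMSO at 6 h (horizontal) and 16 h (vertical), on the log2 scale, for the members (circles), the PERK arm list (triangles) and genes at the floor on any array (grey dots, cropped at the axes). Most members lie near the origin. Apart from it lie HERPUD1 (0.90 and 0.61), XBP1 (1.01 and 0.15), OS9 (0.11 and 0.70) and the fallers at 16 h. DDIT3 lies at 2.08 and 1.70.

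In a limma fit of the 4 arrays of DMSO and vemurafenib with time as a block, 0 of 33 members had a Benjamini-Hochberg adjusted p under 0.05, where 113 of 9651 genes (1.17%) did. At an unadjusted p under 0.05 there were 6 members (18.2%) and 22.2% of all genes. The lowest adjusted p among the members was that of HERPUD1, 0.127 in limma, with a mean difference of 0.75 (SE 0.16) and the same direction at both times. MANF (-0.67, SE 0.17) had an adjusted p of 0.154 and SDF2L1 (-0.88, SE 0.23) one of 0.157 in this limma fit. Its 1 residual degree of freedom is the change of the vemurafenib difference with time and not replicate error, so XBP1, which moved at 1 time, had a mean difference of 0.58 (SE 0.24) and an adjusted p of 0.243.

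With AT9283 alone no member passed the size rule at 6 h, and few genes of any kind did. None of the 32 at the floor rose or fell, against 0.302% of the 8938 genes at the floor in either direction. Of the 34 members 32 lay within 0.25 of DMSO. The SD over all genes at the floor was 0.13 here, and their share within 0.25 was not counted, so the members are not set apart. The highest difference was that of SEC24D (0.34), and HSPA5, HERPUD1 and XBP1 had 0.06, 0.13 and 0.19.

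With AT9283 added to vemurafenib, XBP1 and HERPUD1 were the 2 members that fell relative to vemurafenib alone, and none rose. XBP1 fell by 0.63 and HERPUD1 by 0.53, while 1.46% of the 8999 genes at the floor fell and 0.645% rose. ATF6 and ERN1 had differences of -0.31 and -0.52, the latter below the floor on every array. The 10 chaperones and cofactors had a median of 0.06 and MANF was the highest of them (0.29). SEC24D was 0.38 higher than under vemurafenib alone. Over the 34 members the median was 0.02. With the mean over probe sets XBP1 differed by -0.29, and no member then passed the rule. This comparison uses the same vemurafenib array as the one against DMSO at 6 h, so a high value on that array alone would give a rise in one and a fall in the other.

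Relative to DMSO, the combination left HERPUD1 and XBP1 at 0.37 each, below the size rule, where vemurafenib alone had 0.90 and 1.01. Both comparisons use the same DMSO array. None of the 32 members at the floor rose or fell in the combination against DMSO, against 9.09% of 9076 genes in either direction. Relative to AT9283 none did either, against 8.19% of 9073 genes, with XBP1 at 0.19 and HERPUD1 at 0.24. The interaction, the vemurafenib difference with AT9283 present less that without it, was -0.82 for XBP1 and -0.66 for HERPUD1, and these were the 2 members past 0.5 on either side, where 1.93% of 9219 genes were and 1.42% were lower. With 1 array for each of the 4 conditions it has no residual and was not tested.

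A limma fit of AT9283 over both backgrounds at 6 h, with vemurafenib as a block, gave no member and no gene of 9219 an adjusted p under 0.05. At an unadjusted p under 0.05 there were 1559 genes (16.9%) and 5 of 32 members. SEC24D had a mean difference of 0.36 (SE 0.08) and an adjusted p of 0.235 in limma, with 0.34 without and 0.38 with vemurafenib. For HERPUD1 the difference was 0.13 without vemurafenib and -0.53 with it, so the mean of -0.20 (SE 0.15, adjusted p 0.513 in limma) describes neither.

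**Figure D4:**
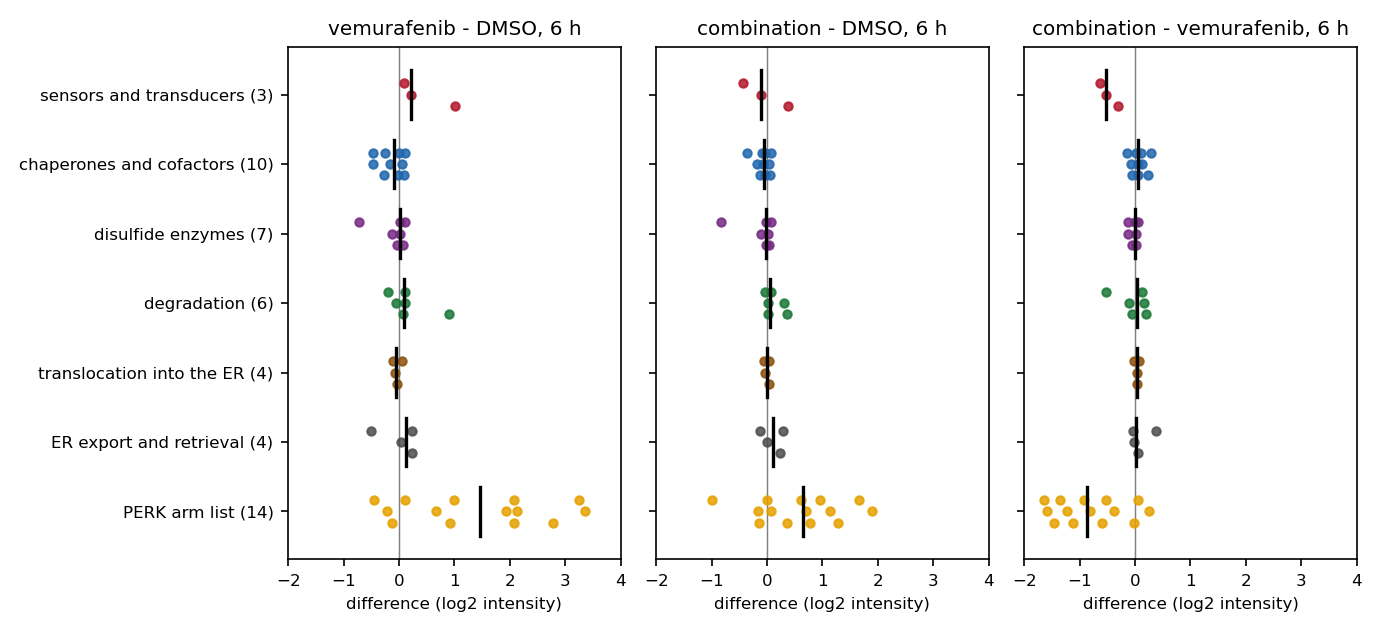
Differences on the log2 scale at 6 h for each member by role (points) and for the 14 measured genes of the PERK arm list, with the median of each group as a vertical bar. The medians of the 6 roles lie between -0.08 and 0.21 for vemurafenib against DMSO (left), and that of the PERK arm list lies at 1.46; for the combination against DMSO (middle) the PERK arm list lies at 0.66, and for the combination against vemurafenib (right) the PERK arm list lies at -0.86 and the 3 sensors, of which ERN1 is below the floor, at -0.52.

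The rest of the pathway was set beside the members through lists of related genes. The PERK arm list holds the kinase PERK, eIF2α (encoded by EIF2S1), the phosphatase subunits PPP1R15A and PPP1R15B, ATF4, and genes that ATF4 and its partner CHOP act on. Earlier results of these data already showed the rise of the list, so it is no independent support. Of its 14 measured genes 10 rose and none fell at 6 h of vemurafenib, against 4.56% and 6.82% of genes at the floor, with a median of 1.46. ATF3, at the floor on both arrays, rose by 2.13. CHAC1 (3.36), NUPR1 (3.26) and VLDLR (2.78) also rose, but lay below the floor in DMSO, so the sizes of their differences are not exact and have no order. ATF4 rose by 0.99 and DDIT3, which encodes CHOP, by 2.08. The genes of the list that did not rise were PPP1R15A (-0.46), EIF2S1 (-0.21), EIF2AK3 (-0.12) and PPP1R15B (0.11). At 16 h EIF2S1 fell by 1.02. Relative to vemurafenib alone 10 of the 14 fell in the combination, against 1.46% of genes at the floor, with differences of -1.59 for NUPR1, -1.47 for CHAC1 and -1.35 for ATF3. VLDLR differed by -1.65 but lay below the floor in the combination, so that this size is not exact. The median of the list was -0.86, and PPP1R15A, which had not risen under vemurafenib, was among the 10 that fell (-0.53). DDIT3 fell by 1.12, and ATF4 differed by -0.38.

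HERPUD1 and XBP1 moved in the same direction as most of this list in both comparisons. XBP1 itself held an ERSE match, and HERPUD1 held matches of ERSE-II and CARE. The ERSE-bearing chaperones and cofactors were HSPA5, HSP90B1, CALR, CANX and CRELD2. None of these passed the size rule in either comparison, the lowest value being -0.15 (CRELD2 at 6 h of vemurafenib). Both comparisons share the vemurafenib array. The likeness of the 2 members to the list was not tested, nor was the part of any motif. DNAJB9 (ERdj4), a known target of spliced XBP1 and not a member, differed by -0.11 at 6 h, -0.22 at 16 h and -0.24 between the combination and vemurafenib.

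In the other lists of the secretory pathway 3 genes moved at 6 h of vemurafenib, where 4.56% of genes at the floor rose and 6.82% fell. Of 43 further folding genes at the floor 1 rose and none fell, of 34 further degradation genes 1 fell, of 38 further genes of translocation and glycosylation none moved, of 44 further export genes 1 fell, and of 8 further sensors and ER-bound factors none moved. The 3 that moved were FKBP9, SELENOS and MCFD2, named after their values were seen. The medians of these 5 lists lay between -0.02 and 0.09.

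At 16 h, where 16.0% of genes at the floor rose and 18.0% fell, the shares in the folding and degradation lists were near or below these. Of 43 further folding genes 7 rose and 3 fell, with the isomerase FKBP9 at 1.03. Of 35 further degradation genes 5 rose and 6 fell, among them SEL1L3 (1.65) and the F-box genes FBXO2 (1.49, below the floor in DMSO) and FBXO6 (1.39), which recognise glycoproteins. Of 38 genes of translocation and glycosylation 1 rose and 1 fell, and of 43 export genes 2 rose and 2 fell. In the list of sensors and ER-bound factors 2 of 9 rose, CREBRF (1.41, below the floor in DMSO), a regulator of the CREB3 family, and ATF6B (0.57), named after its value was seen. None of the 5 lists had a member that rose or fell between the combination and vemurafenib, where 0.645% of genes at the floor rose and 1.46% fell.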

How the data were processed

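The deposited table, of intensity values that the authors made with RMA per the submitters' processing notes, covers 54675 probe sets on a linear scale. Its version, any later step and whether all arrays were normalized together are not stated in the labels. Values were converted to log2. Gene symbols came from the platform annotation, with 41097 probe sets naming 1 gene. A gene took the value of its brightest probe set by mean log2. The 6 h values of 1118 rows sat on other rows than the 16 h values (r between the DMSO arrays 0.455, against 0.992 elsewhere), and these rows were left out. They hold none of the 89 probe sets of the members.

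Each sample was grouped by its label, and no replicate number pairs arrays. Differences were called by size, with thresholds of 0.5 and 1 and a floor of log2 6. Limma 3.58.1 in R 4.3.3, with a trended prior and Benjamini-Hochberg adjustment over genes with an array at the floor, was fitted to the 2 designs with 2 arrays per arm, and was tested on simulated data. Python 3.11.15 was used otherwise. Alternatives changed the scaling, probe set, rows left out, pseudocount, floor, prior and control. All members could be named, with up to 4 genes of each further list past 1 on the log2 scale, and ATF4, DDIT3, EIF2AK3, DNAJB9 and DUSP6. The members and lists were chosen with earlier results of these data known.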

Additional observations from a re-analysis of the deposited data

How the results depend on the processing

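No paired analysis was possible because each condition had 1 array and no replicate number; the limma fits block on time or on vemurafenib instead. For the same reason, leaving out an array leaves no fit with residual degrees of freedom. Recomputed differences numbered 512 for the 8 members that passed the size rule in any comparison. Of these, 488 moved by less than 0.17, and none that had passed the rule changed sign. This yardstick was scaled to 1 array from the SD across genes between the DMSO arrays. Those arrays differ in time, so it holds changes with time as well as array error. The median of the members moved by less than 0.17 in every comparison and setting. Its range at 16 h of vemurafenib was -0.21 to -0.10. No scaling moved the median of all genes by as much as 0.1.

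Counts of 0 to 4 members change easily. With the mean over probe sets, 1 member rose at 6 h of vemurafenib (HERPUD1) and 0 fell, 1 rose at 16 h (OS9, with HERPUD1 at 0.30), 0 fell between the combination and vemurafenib or in the interaction, and 0 rose between the DMSO arrays. This mean includes probe sets below the floor, and XBP1 then differed by 0.40 at 6 h. Without _s_at, _x_at and _a_at probe sets, HERPUD1 and OS9 had no probe set left. The counts were then 1 higher at 6 h, 0 higher at 16 h, and 1 lower (XBP1) for the combination against vemurafenib and the interaction. SEC24D missed -0.5 at 6 h under the 75th percentile, quantile normalization, a pseudocount of 16 and the mean over probe sets, and lay below a floor of log2 7 (0 members lower in each), whereas with no floor 2 were lower, ERO1B being the second; ERO1B was also the 1 member lower in the combination against DMSO and against AT9283 with no floor, and with a floor of log2 7 the DMSO pair had 0 higher. XBP1 passed 1 at 6 h in the main setting, and 0 members did under median centring, quantile normalization, the mean over probe sets or the pseudocount. At 16 h 2 members were lower by 1 or more, SDF2L1 and ERO1B, and 1 under the pseudocount, a floor of log2 7 or the mean over probe sets (SDF2L1). Without _s_at, _x_at and _a_at probe sets it was also 1 (ERO1B), since SDF2L1 had no probe set left.

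Genes called by limma for vemurafenib over both times numbered 113, against 65 with the 75th percentile, 32 with the mean over probe sets, 173 with quantile normalization, 43 with an untrended prior and 71 without _s_at, _x_at and _a_at probe sets. For AT9283 the mean over probe sets gave 196 in place of 0. In every one of these fits 0 members were called. The cause was not tested.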

Other observations

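Many chaperones outside the ER fell at 16 h of vemurafenib. Of 19 genes at the floor on the list of cytosolic and mitochondrial heat shock proteins, 10 fell and 2 rose, with a median of -0.55 over 20 measured genes, where 18.0% of all genes at the floor fell. HSPH1, an HSP110 chaperone, fell by 1.22, the HSP40 DNAJA1 by 1.06, and the HSP90 cochaperone FKBP4 by 1.01, and STIP1, which links HSP70 to HSP90, fell by just over 1. The small heat shock gene HSPB1 and the mitochondrial protease LONP1, named after their values were seen, were the 2 that rose. The 10 ER chaperones and cofactors had a median of -0.25 in the same comparison, with 3 falling. At 6 h 1 gene of the heat shock list fell and the median was -0.09, and for AT9283 alone it was 0.03. The difference between the lists was not tested.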
